A study of Mus musculus with 9 samples.

Results

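The genes described here encode the subunits of mitochondrial complexes I to V, that is, the respiratory chain and ATP synthase. They were chosen by name: every probe set annotated with a single mouse gene symbol that begins with Ndufa, Ndufb, Ndufc, Ndufs, Ndufv, Sdha to Sdhd, Uqcr, Cox4 to Cox8 or Atp5, or that is Cyc1 or Cycs, with the Ndufaf assembly factors left out. The rule uses names and no measured values. It gave 180 probe sets for 88 genes, of 18193 genes with a single symbol on the array. These were 36 genes of complex I, 4 of complex II, 9 of complex III, cytochrome c, 17 of complex IV and 17 of complex V. The remaining 4 were Sdhaf1, Sdhaf2, Sdhaf3 and Sdhaf4, which share the Sdh letters but are assembly factors of complex II and not subunits, so they were counted apart. Ndufa4 was grouped with complex I by its name, although the protein is now placed with complex IV. Cox7a2l, which is placed with respiratory supercomplexes, was grouped with complex IV.

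Complexes I, III and IV pass electrons from NADH to oxygen and pump protons across the mitochondrial inner membrane, complex II feeds electrons from succinate without pumping, and complex V makes ATP as protons flow back. Cytochrome c is the small carrier between complexes III and IV. All genes described here lie in the nucleus, and the transcription factors NRF1, GABPA, YY1 and the estrogen-related receptors, with PGC-1 coactivators, are known regulators of their genes. Fibroblasts in culture use both glycolysis and this chain.

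Total RNA of mouse embryonic fibroblasts from E13.5 embryos, immortalized spontaneously, was measured on 9 arrays. One line came from embryos lacking Suv420h1 (now Kmt5b), which encodes a methyltransferase of histone H4 lysine 20, and is called the null line. It was measured untransduced, with GFP (these 2 arrays form the null group) and with a Suv420h1-GFP fusion put back, the reconstituted array. The other line, wild type, was transduced with lentivirus, and each array is 1 construct: GFP or LacZ (the 2 control arrays), unmutated PREX2, or PREX2 with a premature stop at K278*, E824* or Q1430* (the 3 truncated arrays). PREX2 activates Rac, a small GTPase. The comparison of the null arrays with the control arrays asks what goes with the loss of Suv420h1. Setting all 3 null-line arrays against the 6 wild-type-line arrays asks what differs between the lines, since the reconstituted array is among the 3. Comparisons within the wild-type line ask what PREX2 or its truncation does. The labels give no culture replicates and no number of embryos per line, so each p-value measures only the spread between these arrays. Genotype and line cannot be told apart, because each genotype is 1 line, and the wild-type line has no untransduced array.

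The labels were checked on Kmt5b. Of its 5 probe sets, 1 followed the labels, with a signal of 8.85 on the untransduced null array, 17.3 on null GFP, 150.3 on the reconstituted array and 117.9 to 182.4 on the 6 wild-type-line arrays. The other 4 did not show this pattern. The brightest was at 432.3 and 442.1 on the null arrays and 294.6 to 469.6 in the wild-type line (log2 difference between the lines -0.05, not called). Another was called higher in the null line (log2 0.80), at 462.1 to 553.7 against 221.4 to 338.1. A dim one was called lower in the null line (log2 -0.56), at 66.2 to 101.5 against 102.6 to 153.4, but the reconstituted array was its lowest. The last was too dim to test. Which part of the gene each reads was not given in the sources used here. All 11 fibroblast markers on the list used were measured, with a summed signal of 146646 to 154888 on null-line arrays and 152464 to 209346 on wild-type-line arrays. Each of the 11 had a difference below 0 between the lines (median log2 -0.27, lowest -6.11), 3 of them were called lower and none higher, and Vim is the brightest part of the sum. The summed neural list (5 genes, led by Map2) was 149.2 to 351.3 on null-line arrays and 890.4 to 2166 on wild-type-line arrays. Macrophage, endothelial, epithelial, adipocyte and muscle lists summed to at most 2229 on any array. The 3' to 5' signal ratio, a sign of RNA integrity, was 0.850 to 0.864 (Gapdh) and 1.15 to 1.21 (Actb) on null-line arrays, and 0.815 to 0.922 and 1.18 to 1.36 on wild-type-line arrays. Fewer cells of a type and less RNA per cell cannot be told apart in such bulk samples, and the part that these differences play in any result was not tested.

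Values are MAS5 signals, a brightness per probe set on a linear scale. Fold differences are on log2(signal + 25), which understates changes of dim genes. A probe set was tested if its mean signal over the 9 arrays was at least 100, and a gene is represented by its brightest probe set. Of the 88 genes, 81 were tested. The 7 below the threshold were Cox7b2, Cox8b, Ndufb4, Ndufa4l2, Cox7a1, Cox6b2 and Cox4i2, whose mean signals were 8.05 to 68.5. Just inside it lay Cox7c at 171.0, Cox6a2 at 245.1 and Cox8c at 249.7. The word lower or higher, as a call, means an adjusted p below 0.05 from limma, with Benjamini-Hochberg adjustment over all 19090 probe sets tested.

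Promoter sequences are shown for the pair of members with the strongest lower values that had one (Uqcrh, Ndufa6) and for the bright pair with the largest higher values (Ndufs5, Ndufb7). Each is 300 bases around the RefSeq start on GRCm38.p6, read 5′ to 3′ along the gene's strand. Capitals mark matches to the NRF1 motif (GCGCA, any base, then GCGC), the ETS motif CCGGAAG (bound by GABPA) or the YY1 motif ATGGCGG, on either strand. Uqcrh lies at chr4:116075021-116075320 on the minus strand, Ndufa6 at chr15:82354242-82354541 on the minus strand, Ndufs5 at chr4:123718137-123718436 on the minus strand and Ndufb7 at chr8:83566508-83566807 on the plus strand.
Uqcrh: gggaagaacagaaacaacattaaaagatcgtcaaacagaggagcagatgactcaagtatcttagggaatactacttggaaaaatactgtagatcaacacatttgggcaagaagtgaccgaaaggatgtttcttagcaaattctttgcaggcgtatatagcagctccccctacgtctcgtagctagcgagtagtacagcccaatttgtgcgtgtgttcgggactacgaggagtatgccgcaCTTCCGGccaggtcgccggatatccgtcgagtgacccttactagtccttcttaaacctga
Ndufa6: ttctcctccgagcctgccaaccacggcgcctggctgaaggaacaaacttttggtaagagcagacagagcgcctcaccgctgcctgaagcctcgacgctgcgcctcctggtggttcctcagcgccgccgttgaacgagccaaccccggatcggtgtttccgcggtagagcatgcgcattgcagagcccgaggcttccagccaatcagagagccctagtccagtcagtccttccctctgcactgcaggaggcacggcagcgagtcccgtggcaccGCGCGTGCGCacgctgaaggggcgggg
Ndufs5: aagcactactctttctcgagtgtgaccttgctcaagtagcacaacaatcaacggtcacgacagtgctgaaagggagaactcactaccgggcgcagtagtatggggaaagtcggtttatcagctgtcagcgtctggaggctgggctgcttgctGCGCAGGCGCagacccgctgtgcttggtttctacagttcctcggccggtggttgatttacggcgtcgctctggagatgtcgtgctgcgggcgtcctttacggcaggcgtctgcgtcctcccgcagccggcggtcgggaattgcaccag
Ndufb7: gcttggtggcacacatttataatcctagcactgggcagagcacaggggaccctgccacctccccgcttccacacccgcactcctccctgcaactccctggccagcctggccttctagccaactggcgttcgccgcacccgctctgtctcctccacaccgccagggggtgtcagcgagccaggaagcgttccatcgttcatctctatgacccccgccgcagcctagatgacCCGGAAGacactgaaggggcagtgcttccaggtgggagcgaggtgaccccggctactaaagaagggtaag

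Uqcrh and Ndufb7 held 1 ETS match each, and Ndufa6 and Ndufs5 held 1 NRF1 match each, so members that differed in opposite directions carried the same motif. Over the 67 tested members with a promoter entry, the NRF1 motif was found in 23.9%, against 8.61% of the 14453 array genes with an entry. The ETS motif was found in 29.9% against 15%, the YY1 motif in 14.9% against 7.04%, and the estrogen-related receptor motif AAGGTCA in 10.4% against 4.61%. The GC box GGGCGG was found in 46.3% of members against 57.3%. These array genes were taken whether or not their signal passed the threshold, so they are not matched to the members in brightness. Searched letters are on both strands, motifs may overlap, and a match is a description of letters and not of binding. Among the members that were lower between the lines, 22.5% of 40 with an entry held the NRF1 motif, against 22.7% of 22 that were not called. The ETS motif was found in 35% against 18.2% of these, the YY1 motif in 17.5% against 13.6% and the estrogen-related receptor motif in 7.5% against 13.6%. None of these shares was tested.

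Most of these genes were lower in the null line. Comparing its 3 arrays with the 6 of the wild-type line, 52 of the 81 tested genes were lower (64.2%) and 5 were higher (6.17%). Of all 10177 genes tested, 23.2% were lower and 20.7% were higher. Since these members are bright, genes with a mean signal of at least 2000 (the bright genes) are a nearer background. Of those 2525 genes 29.6% were lower and 17.5% higher. At a mean signal of at least 4000 the shares were 32.2% and 15.0%, with a median log2 difference of -0.10. The median difference of the members was -0.32 on the log2 scale, against -0.02 for all genes and -0.08 for the bright genes. All 3 null-line arrays lay below all 6 others for 48 members and above them for 6, against 21.1% and 20.3% of all genes. Most differences were small: 13 of the 81 members passed 1.5-fold and 2 passed 2-fold (Uqcrh and Ndufa6), while 2565 and 1087 of the 10177 genes tested did so. Of the 2525 bright genes, 473 passed 1.5-fold and 177 passed 2-fold. Leaving out each array in turn, 42 of the 52 lower calls and 4 of the 5 higher calls held in all 9 fits. Scaling all arrays to a common median moved the median of all genes from -0.02 to -0.23 and then gave 66 lower and 3 higher members, against 38.7% and 12.1% of all genes.

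**Figure D1:**
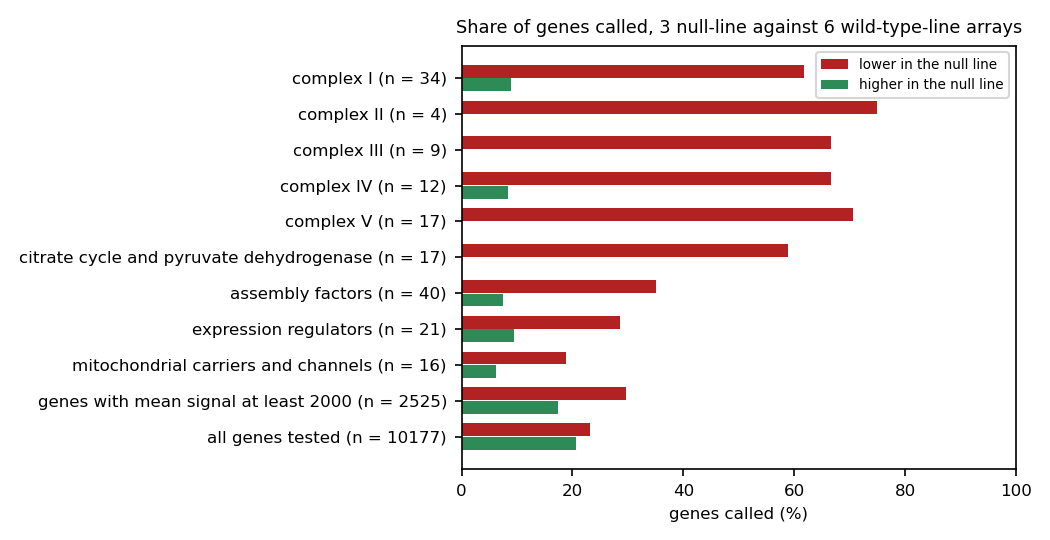
Share of genes called lower (red) or higher (green) on the 3 null-line arrays than on the 6 wild-type-line arrays, in percent of genes tested, for the 5 complexes, 4 lists of related mitochondrial genes, bright genes and all genes tested. Lower calls make up 61.8% to 75% of each complex, against 23.2% of all genes tested.

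Levels averaged over all members separated the lines without overlap. The mean of log2(signal + 25) over the 81 genes was 12.49 on the untransduced null array, 12.51 with GFP and 12.50 on the reconstituted array. In the wild-type line it was 12.80 with GFP, 12.75 with LacZ, 12.85 with unmutated PREX2, 12.68 with K278*, 12.85 with E824* and 12.80 with Q1430*. The reconstituted array lay among the null-line arrays, and K278* was the lowest of the wild-type line. The line difference of these means was -0.27 for complex I, -0.40 for complex II, -0.48 for complex III, -0.21 for complex IV and -0.32 for complex V. Differences between the complexes were not tested.

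**Figure D2:**
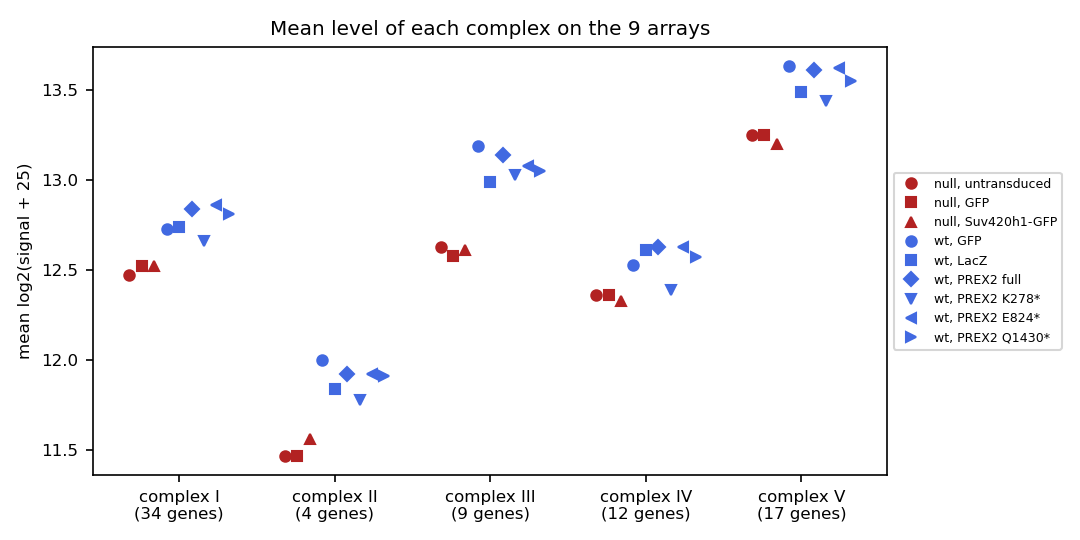
Mean log2(signal + 25) of the tested genes of each complex on each of the 9 arrays, null line in red and wild-type line in blue, with a marker per array. Every red point lies below every blue point of the same complex; heights of different complexes are not comparable, because probe sets differ in brightness.

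Complex I, the NADH dehydrogenase, had 21 of its 34 tested genes lower and 3 higher between the lines. Its N module takes electrons from NADH, and there 6 of 7 genes were lower and Ndufa12 was higher. In the Q module, which passes electrons to ubiquinone, all 4 tested genes were lower. Of the 23 other genes, mostly of the membrane arm, 11 were lower and 2 higher. Ndufa6, an accessory subunit near the joint of both arms, gave 3401, 3752 and 3858 on the untransduced, GFP and reconstituted null-line arrays. In the wild-type line it ranged from 6755 (median 8086) to 9425, so the lines did not overlap (log2 difference -1.11, SE 0.106, limma adjusted p 1.605e-05). Ndufb9, of the membrane arm, gave 10092, 10416 and 10068 against 15151 to 19723 (median 17677), a log2 difference of -0.80 (SE 0.0830). Ndufa2, an N module subunit, gave 8251, 8702 and 8673 against 13579 to 15854 (median 14738), and a log2 difference of -0.78 (SE 0.0675). In each of these genes the 3 null-line arrays sat close together and well below the others.

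Among the core subunits that carry the electrons, Ndufs1 differed most. The signal of this largest iron-sulfur subunit was 1777, 1958 and 2026 in the null line and 3041 to 3348 (median 3155) in the wild-type line, a 1.65-fold difference (log2 -0.72, SE 0.0720, adjusted p 2.321e-05). Smaller differences were found in Ndufs8 (log2 -0.50) and Ndufs3 (-0.44), both Q module subunits, in Ndufv1, which holds the flavin (-0.39), and in Ndufs7 (-0.38) and Ndufv2 (-0.38). All of these were called lower, with SE of 0.0673 to 0.0822, and in none did the lines overlap. Ndufa4 was not called, with a log2 difference of 0.04 (SE 0.0774).

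Ndufs5 and Ndufb7, both accessory subunits on the intermembrane-space side of the membrane arm, ran the other way. Ndufs5 gave 3936, 4576 and 3851 in the null line and 2369 to 3015 (median 2690) in the wild-type line (log2 0.60, SE 0.0927, adjusted p 0.0004519). Ndufb7 gave 8930, 10090 and 9579 against 6115 to 7153 (median 6840), a log2 difference of 0.50 (SE 0.0731). A second Ndufb7 probe set was also higher (log2 0.35). Ndufa12 was called higher (log2 0.21, SE 0.0594), but this call rests on the probe set: of its other 2, 1 was called lower (log2 -0.42, adjusted p 0.001458) and 1 was at 0.04 and not called. It was also lost without the null GFP array (adjusted p 0.0539), and its sign turned when arrays were scaled to a common median (-0.01).

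**Figure D3:**
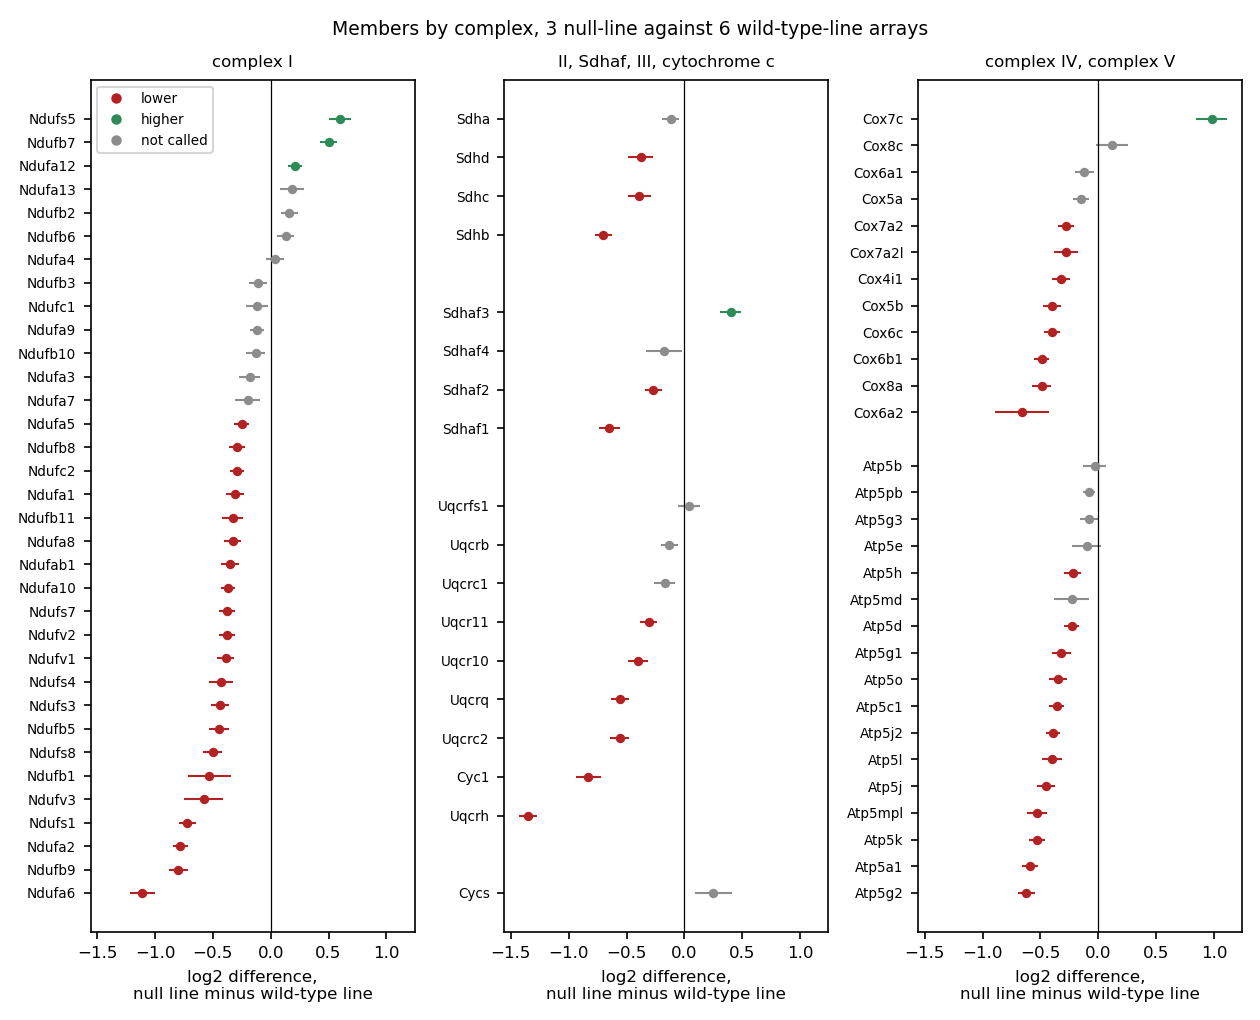
Log2 difference, null line (3 arrays) minus wild-type line (6 arrays), for each of the 81 tested members by complex. Points are limma estimates with bars of 1 SE, red where called lower, green where called higher and grey where not called; Uqcrh at -1.35 is the lowest point and Cox7c at 0.98 the highest.

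Complex II, succinate dehydrogenase, had 3 of 4 subunits lower. Sdhb, the iron-sulfur subunit, gave 3474, 3376 and 3688 in the null line and 5423 to 6256 (median 5617) in the wild-type line (log2 -0.70, SE 0.0703, adjusted p 2.379e-05). The membrane anchors Sdhc and Sdhd were lower (log2 -0.39 and -0.38), the second with an adjusted p of 0.0699 when the reconstituted array was left out. Both calls rest on the brightest probe set, since the other tested probe set of each was not called (-0.29 and -0.08). The flavin subunit Sdha, at -0.12 (SE 0.0740), was not called. Of the assembly factors, Sdhaf1, needed for the iron-sulfur clusters of Sdhb, gave 366.6, 388.1 and 404.9 against 568.8 to 677.7 (log2 -0.65, SE 0.0916). Sdhaf2, which helps attach the flavin to Sdha, was also lower (-0.27), but its other tested probe set was not called (-0.17). Sdhaf3 was higher, at 1074, 900.2 and 847.8 against 670.1 to 736.1 (log2 0.40, SE 0.0926). This call was lost when arrays were scaled to a common median (log2 0.19, limma adjusted p 0.1457). Sdhaf4 was not called.

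Complex III, the cytochrome bc1 complex, held the gene with the largest difference of all members. Uqcrh, the hinge protein near cytochrome c1, gave 5885, 5853 and 5446 in the null line. Its wild-type-line signals ran from 12981 (median 14842) to 16290, which is 2.56-fold higher as a ratio of mean signals (log2 difference -1.35, SE 0.0788, adjusted p 4.737e-07). A second Uqcrh probe set was lower by a log2 value of -1.15 (SE 0.0761, adjusted p 1.148e-06). Cyc1, cytochrome c1 itself, gave 7004, 6259 and 5911 against 10047 to 13932 (median 10913), a log2 difference of -0.83 (SE 0.111, adjusted p 0.0001645). Uqcrc2, a core subunit, and Uqcrq, a small subunit, were each lower (log2 -0.56), Uqcr10 (log2 -0.40) and Uqcr11 (log2 -0.31). The Uqcr10 call rests on its brightest probe set, since the other 2 were not called (0.14 and -0.10). The Rieske iron-sulfur protein Uqcrfs1 (0.04, SE 0.0933), Uqcrc1 (-0.17, SE 0.0896) and Uqcrb (-0.13, SE 0.0738) were not called. Within 1 complex, then, log2 differences ranged from -1.35 to 0.04.

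Cycs, cytochrome c, was not called in any comparison with all arrays. Its signal was 18448, 16802 and 16981 in the null line, and in the wild-type line 20634 with GFP, 12854 with LacZ, 14059 with unmutated PREX2, 17327 with K278*, 12069 with E824* and 12402 with Q1430*. The wild-type-line arrays thus spanned the null-line values, with GFP and K278* high (log2 difference between the lines 0.25, SE 0.157). Without the wild-type GFP array Cycs was called higher in the null line (log2 0.35, adjusted p 0.01726). The other 2 Cycs probe sets tested were not called either, at 0.19 and 0.31.

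**Figure D4:**
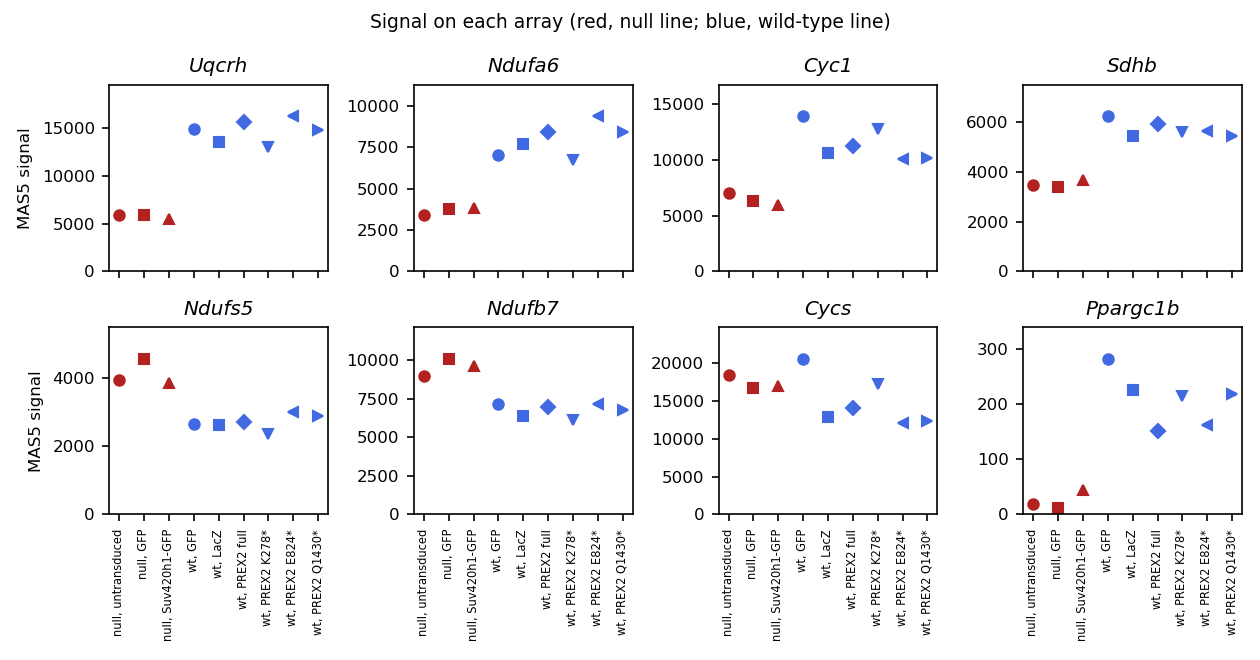
MAS5 signal of 7 members and of the coactivator gene Ppargc1b on each array, with a linear axis from 0 in each panel, null line in red and wild-type line in blue. Uqcrh, Ndufa6, Cyc1, Sdhb and Ppargc1b lie lower on all 3 null-line arrays, Ndufs5 and Ndufb7 lie higher, and Cycs overlaps between the lines.

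Complex IV, cytochrome c oxidase, had 8 of 12 tested genes lower and 1 higher. Cox6b1 gave 11110, 11471 and 12340 in the null line and 15022 to 17194 (median 16505) in the wild-type line, a log2 difference of -0.49 (SE 0.0610, adjusted p 0.0001024). Cox8a gave 8110, 8708 and 8782 against 10422 to 13360 (median 11848), also -0.49 (SE 0.0787). Cox5b (-0.40) and Cox4i1 (-0.32) were lower, and Cox5a was not called (-0.15, SE 0.0674). Another Cox5a probe set was called lower (-0.31), and the remaining tested probe set was not (-0.21). The brightest Cox5a probe set was called lower without the untransduced null array (-0.21) and with arrays scaled to a common median (-0.37). Several subunits exist as paired isoforms, whose probe sets cannot be ranked against each other by signal. Cox4i1 ranged from 15651 to 21947 over the 9 arrays. Cox4i2, the form known from lung and low oxygen, ranged from 45.3 to 85.5 and was not tested. The muscle form Cox6a2 gave 131.7 to 196.9 in the null line and 167.4 to 374.6 in the wild-type line. It was called lower (-0.66, SE 0.231), a call lost in 7 of 9 fits that left out 1 array, while Cox6a1 was not called (-0.12, SE 0.0847). Cox7a2 was lower (-0.28), and Cox7a1, the muscle form, stayed at or below 52.0 on every array. Cox6b2, Cox7b2 and Cox8b, and Ndufa4l2 beside Ndufa4, were also below the threshold, and Cox8c was not called.

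Cox7c was the only member of complex IV called higher. Its probe set is dim, at 306.0, 237.0 and 256.8 in the null line and 96.8 to 136.6 (median 126.7) in the wild-type line (log2 0.98, SE 0.136, adjusted p 0.0002181). Another Cox7c probe set, below the threshold, gave 118.9, 89.5 and 88.1 in the null line and 29.6 to 69.6 in the wild-type line, again without overlap. Which part of the transcript either probe set reads was not given in the sources used here.

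Complex V, the ATP synthase, had 12 of 17 genes lower and none higher. Of the catalytic F1 head, the alpha subunit Atp5a1 gave 8184, 8576 and 7798 in the null line and 11608 to 13774 (median 12194) in the wild-type line (log2 -0.59, SE 0.0680, adjusted p 5.749e-05). The gamma subunit Atp5c1 was lower (log2 -0.36) and the delta subunit Atp5d (log2 -0.23), whereas the beta subunit Atp5b (-0.03, SE 0.101) and Atp5e (-0.10, SE 0.124) were not called. The other tested Atp5c1 probe set, dim at a mean signal of 157.7, was not called (-0.09). The Atp5d call was lost without the untransduced null array (-0.19, limma adjusted p 0.0682), while its other tested probe set was called lower (-0.33). The difference between the alpha and beta subunit genes was not tested. Subunit c of the proton-driven ring is encoded by 3 genes with the same mature protein. Among them Atp5g2 gave 8149, 8564 and 8876 against 11316 to 13946 (log2 -0.62, SE 0.0747), Atp5g1 was lower (log2 -0.32), and Atp5g3 was not called (-0.08, SE 0.0761). Atp5k and Atp5mpl, small subunits of the membrane part, were each lower (log2 -0.53).

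The result was checked on other probe sets. The 44 genes with more than 1 tested probe set gave 66 pairs of the brightest with another. In 61 pairs the differences had the same sign, in 35 both were called lower and in 1 both higher. In 14 pairs neither was called, in 13 only the brightest was, in 2 only the other was, and in 1 the calls were opposite (Ndufa12). Probe sets of 1 gene share its RNA and array, so they are not replicates.

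**Figure D5:**
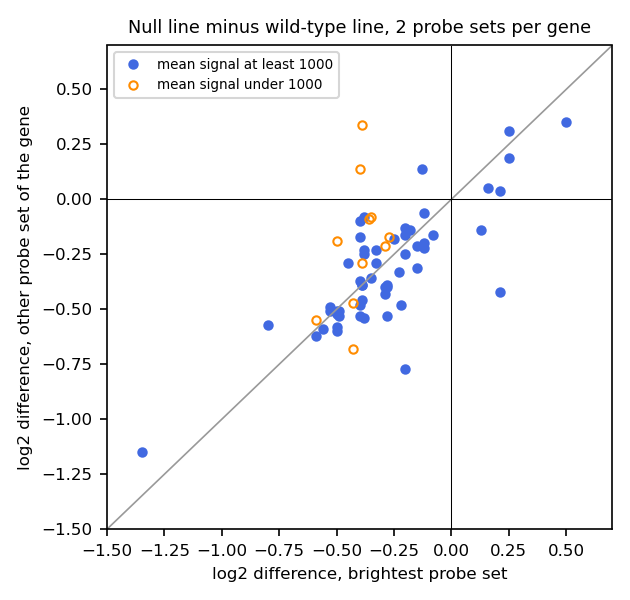
Log2 difference, null line minus wild-type line, of another tested probe set (vertical) against the brightest probe set (horizontal) of the same gene, for 66 pairs in 44 genes. Filled points have a mean signal of at least 1000 in the other probe set, the line marks equal values, and 61 of 66 points have the same sign on both axes.

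Set against the control vectors only, fewer arrays carried the comparison. With the 2 null arrays and the 2 wild-type control arrays, 24 of 81 members were lower and 4 were higher, against 10% and 10.2% of all genes tested. The higher members were Ndufs5, Ndufb7, Cox7c and Sdhaf3. In a fit of these arrays alone, 15 members were lower and 0 higher, against 4.7% and 5.4% of all genes. The 24 included 8 genes of complex I, 1 of complex II, 5 of complex III, 3 of complex IV, 6 of complex V and Sdhaf1. Median log2 differences were -0.26 in complex I, -0.44 in complex II, -0.47 in complex III, -0.33 in complex IV and -0.31 in complex V, against -0.03 over all genes tested. Of the lower members, Uqcrh again differed most, at -1.27 (SE 0.125, adjusted p 0.0008819), followed by Ndufa6 at -1.04 (SE 0.165), Cyc1 at -0.87 (SE 0.172), Ndufs1 at -0.79 (SE 0.114) and Sdhb at -0.77 (SE 0.111). Both line comparisons share their null and control arrays, so the second is no independent check of the first. A fit without 1 of these arrays leaves 1 array in its group. The median member difference was -0.29 without the untransduced null array and -0.33 without the null GFP array, against -0.03 and -0.02 for all genes. It was -0.27 without the GFP control array and -0.36 without the LacZ array, against -0.04 and -0.02. Without either null array fewer members and fewer of all genes were called, and the member share of lower calls came near that of all genes. Only Ndufa2, Ndufs1 and Uqcrh were lower in every such fit. Scaling all arrays to a common median gave 42 lower and 0 higher members, against 17.0% and 6.9% of all genes. It moved the median of all genes from -0.03 to -0.21.

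No member differed detectably after Suv420h1 was put back. Between the reconstituted array and the 2 null arrays, limma called 0 of 81 members, as it called 0% of all genes in either direction, and 1 member had an unadjusted p below 0.05. Member differences ran from -0.59 to 0.26 with a median of 0.04. Uqcrh was at -0.11 (SE 0.154), Ndufa6 at 0.11 (SE 0.202), Cyc1 at -0.16 (SE 0.211), Ndufs1 at 0.12 (SE 0.140) and Sdhb at 0.11 (SE 0.136). The member at -0.59 was Atp5md, a small ATP synthase subunit, at 7210 on the reconstituted array against 10768 and 10968 on the null arrays. In a fit on those 3 arrays alone it was the 1 member called (adjusted p 0.0188), with the spread taken from the 2 null arrays only, whereas its adjusted p was 0.9999 in the fit of all 5 groups. With 1 reconstituted array, only large differences could have been called.

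No member was called in the comparisons of PREX2 constructs, where each construct is 1 array and hardly any gene was called. Limma called 0 members with truncated PREX2 (3 arrays) against control (1 at an unadjusted p below 0.05; 0.00983% of all genes higher and 0% lower). It also called 0 with unmutated PREX2 (1 array) against control, and 0 between truncated and unmutated PREX2, with 0 at an unadjusted p below 0.05 in each and 0% of all genes. Differences ran from -0.27 to 0.33 for truncated PREX2 against control, from -0.21 to 0.34 for unmutated PREX2 against control, and from -0.54 to 0.25 for truncated against unmutated. No member passed 2-fold in any of these. The median differences were -0.00, 0.06 and -0.07. Small effects could not have been called in this design, so these counts do not show that PREX2 leaves the members unchanged. The 2 control arrays differed from each other by over 1.5-fold in 4 of 81 members (Cox6a2 and Ndufv3 lower with GFP, Ndufb1 and Cycs higher with GFP) and by over 2-fold in none, against 22.8% and 7.29% of all genes.

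Related mitochondrial genes were counted by lists of known function. In the citrate cycle and pyruvate dehydrogenase, which supply the chain with NADH and succinate, 10 of 17 genes were lower between the lines (58.8%). None was higher, and differences ran from -0.58 to 0.04. Of all genes 23.2% were lower, and of the bright genes 29.6%. Pdhx, a pyruvate dehydrogenase component, was lower (log2 -0.58) and Pcx, pyruvate carboxylase, by -0.47. Leaving out 1 array, Pcx lost its call in 3 of 9 fits and Pdhx in 1. Against the control arrays 2 of the 17 were lower, a share of 11.8% against 10% of all genes and 13.6% of the bright genes. These were Pdhx (-0.83) and Dlst (-0.56). Neither was called in all fits that left out 1 array. Of the mitochondrial carriers and channels, 3 of 16 were lower, the outer-membrane channel Vdac2 (-0.45), Mpc1 (a subunit of the pyruvate carrier, -0.52) and the oxoglutarate carrier Slc25a11 (-0.50). Slc25a13, an aspartate-glutamate carrier, was higher (0.92), a call lost without any 1 of the 3 null-line arrays. The share of lower genes in that list was 18.8%, against 23.2% of all genes tested and 29.6% of the bright genes.

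Assembly factors, which build the complexes but are not part of them, were lower in 14 of 40 cases (35%) and higher in 3 (7.5%). Of all genes 23.2% were lower and 20.7% higher, and of the bright genes 29.6% and 17.5%. This list is on average dimmer than those bright genes, so they are not matched to it in brightness. Coa7, a factor of complex IV assembly, gave 541.9, 448.7 and 398.0 in the null line against 1153 to 1843 (median 1646) in the wild-type line (log2 -1.72, SE 0.148). Uqcc3, a factor of complex III assembly, gave 417.9, 567.1 and 651.3 against 935.1 to 1570 (log2 -1.19, SE 0.179). Against the control arrays, 6 of the 40 were lower (15%) and 2 higher (5%), Cox18 and Cox15 (0.68, a heme-modifying enzyme of complex IV assembly). In that comparison 10.0% of all genes were lower and 10.2% higher, and of genes with a mean signal of at least 1000, 12.7% and 9.22%. The lower share is not far above these backgrounds, and the excess was not tested. Neither Cox18 nor Cox15 kept this call in all fits that left out 1 array. Between the lines, Cox18 (0.48), an insertase for a complex IV subunit, and the complex I factor Ndufaf4 (0.66) were higher, the latter not in all fits that left out 1 array.

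Among 21 regulators of these genes, 6 were lower (28.6%) and 2 were higher (9.52%) between the lines, against 23.2% and 20.7% of all genes, so the lower share is near the background. The coactivator genes Ppargc1a and Ppargc1b were the members of that list with the largest differences. Ppargc1b gave 19.5, 11.7 and 43.7 on the untransduced, GFP and reconstituted null-line arrays and 151.4 to 282.9 (median 216.1) in the wild-type line (log2 -2.26, SE 0.229, adjusted p 2.472e-05). Ppargc1a gave 47.2, 24.6 and 32.6 against 105.4 to 237.0 (median 132.7), at log2 -1.48 (SE 0.220). Both are dim, with null-line signals near the added 25, and both were lower in all 9 fits that left out 1 array. The third gene of the family, Pprc1, was higher (0.52), and so was Myc (0.91), each losing its call without at least 1 null-line array. Myc was also high on the wild-type GFP array, at 1689 against 649.7 to 1261 on the other 5. The genes of the factors whose motifs were searched were not called: Nrf1 was at 0.09 (SE 0.184), Gabpa at -0.10 (SE 0.113), Esrra at 0.10 (SE 0.145) and Yy1 at 0.16 (SE 0.0719).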

How the data were processed

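Total RNA was measured on 9 Affymetrix Mouse Genome 430 2.0 arrays, and the deposited value table of intensity values holds the authors' MAS5 signals, per the submitters' processing notes. The 2%-trimmed mean was 500 on every array, so the signals had been scaled; the MAS5 settings were not given in the sources used here. Probe sets were named by the platform annotation, and all 88 member genes matched a RefSeq entry. Values were analysed as log2(signal + 25), for probe sets with a mean of at least 100, in limma 3.58.1 (R 4.3.3; lmFit, eBayes with an intensity trend). One fit had 5 groups (4 residual degrees of freedom) and another had the 2 lines (7). Benjamini-Hochberg adjustment ran over 19090 probe sets, and genes were counted by their brightest one. The script was tested on simulated data in which 50 of 19090 probe sets were changed, far fewer than were called between the lines here. For null against control, 0 were recovered at 1.5-fold, 0 at 2-fold and 47 at 4-fold, with 6 false calls at 4-fold. For the line comparison, 5, 42 and 50 were recovered, with 1 false call at 4-fold. The number of arrays limits the precision.

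Members and lists were chosen with earlier results of these data known. By rule, the text names the core subunits, the isoform pairs and, per comparison and complex, up to 4 passing members each way with the largest differences (up to 2 in other lists). Other genes were named after their values were seen. Alternatives were the offset, filter, array scaling, probe set choice, variance trend, compared groups alone and each array left out.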

Additional observations from a re-analysis of the deposited data

Results flagged for a closer look

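Among the 6 wild-type-line arrays, single arrays stood apart from the other 5 for 5 of the 47 named members examined with Dixon's gap test, where chance flags about 1 in 20. On the K278* array, Atp5g2 was low at 11316 (the others from 12946 to 13946), Cox6a1 was low at 20876 (25176 to 28080) and Sdha was low at 4710 (5349 to 5675). On the wild-type GFP array, Sdhd was high at 4560 (3127 to 3583) and Uqcrc1 was high at 7469 (5668 to 6263). Of these 5 genes, Atp5g2 and Sdhd were called lower in the null line; without the K278* array and without the wild-type GFP array, respectively, both were still called. Cox6a1, not called with all arrays, was called lower without the K278* array (log2 -0.17, adjusted p 0.02771).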

How the results depend on the processing

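Line comparison: over the alternatives that keep all 9 arrays, 43 to 66 members were lower and 3 to 6 higher. The 3 higher came with median scaling, which also turned Ndufa12 (log2 -0.01) and gave 38.7% of all genes lower and 12.1% higher. With 1 array left out, member counts were 45 to 54 and 4 to 6, against 18.0% to 27.6% and 16.1% to 24.5% of all genes. Null against control vectors: lower counts were 42 with median scaling, 16 without the filter, 15 without the intensity trend, 15 with the compared groups alone, and 4 to 27 with 1 array left out. Higher counts there were 1 without the filter, 0 with median scaling, 2 without the trend, 0 with the groups alone, and 0 to 2 with 1 array left out. Median log2 differences of complexes I to V became -0.46, -0.64, -0.66, -0.53 and -0.51 with median scaling. Those of I, IV and V were -0.21, -0.23 and -0.24 with quantile normalization, and that of IV was -0.19 without the filter. Leaving out 1 array gave -0.30 to -0.24 (I), -0.56 to -0.33 (II), -0.46 to -0.32 (III), -0.34 to -0.29 (IV) and -0.39 to -0.29 (V). The reconstituted array gave 1 lower member with the compared groups alone. In every other case the cause was not tested. No paired analysis was possible because the labels carry no replicate numbers. Limits: each genotype is 1 line, each construct is 1 array except GFP, which is on 1 array of each line, 7 members lay too near the background to test, and probe-set signals do not rank genes.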
